A study of Mus musculus with 7 samples.

Results

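The immediate early genes examined here were Fos, Fosb, Jun, Junb, Atf3, Egr1, Egr3, Nr4a1, Ier2 and Arc, chosen as every probe set whose only gene symbol in GEO's platform annotation is one of these. All 10 genes had a sense probe set, 12 probe sets in all, out of 18193 named genes and 45037 sense probe sets in the series. Of the 10, 3 also had a reverse probe set, among 5652 reverse probe sets in all. The study took total RNA from mouse brain and kidney and read it on 7 Affymetrix arrays, of which 3 read sense and 4 antisense transcripts. Sense RNA of brain went on the array pair 430A and 430B, that of kidney on the single array 430 2.0, which carries the probe sets of both. For antisense, each tissue had a U74A and a U74B array, early designs on which some probe sets run in the reverse direction and so pair with RNA opposite to the annotated transcript. Per the labels, tissue was rinsed in cold buffer after dissection and taken straight into TRIzol, and labelling started from 8 micrograms (brain) and 6.75 micrograms (kidney) of total RNA. Strain, sex, age, number of animals and the time from death to extraction are not given in the sources used here. With 1 array for each tissue and design, no difference has a replicate check, no p-value is given, and array type and tissue cannot be told apart for sense.

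Immediate early genes are switched on within minutes of a stimulus without new protein synthesis. Signals through the MAP kinase ERK and through calcium act on transcription factors that already wait at their promoters, chiefly SRF with its TCF partners, CREB and MEF2. In brain they are widely used as markers of recently active neurons, and in kidney they respond to growth factors and to injury. FOS and JUN proteins pair through leucine zippers to form AP-1, EGR proteins are zinc finger factors, NR4A1 is an orphan nuclear receptor, and ARC works at synapses.

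The tissues carried their own markers (counted among those above the floor). All 6 neuronal markers were higher in brain by 2-fold or more, and all 4 proximal tubule and all 4 distal nephron markers in kidney. All 3 oligodendrocyte markers were also higher in brain. The excitatory neuron and astrocyte lists were mixed. Among excitatory neuron markers, 2 of 4 were higher in brain and Prox1 in kidney (at least 2.04-fold). Among astrocyte markers, 2 of 4 were higher in brain and Aldh1l1 in kidney (2.32-fold). The brain RNA also held pituitary transcripts (Gh at 5129.1 in brain and 33.8 in kidney), with 3 of 3 pituitary markers higher in brain and a summed signal of 12689.8 in brain and 88.1 in kidney. The kidney RNA held transcripts of fat cells (Fabp4 at 24 in brain and 4989.2 in kidney), with 2 of 2 fat markers higher in kidney and a summed signal of 28.8 in brain and 5605.2 in kidney. Smooth muscle (2 of 2), endothelium (2 of 4) and red blood cell (1 of 2) markers were also higher in kidney, and 0 of 3 adrenal markers were called. Whether these other cells add to any value below was not tested.

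Values are MAS5 signals, Affymetrix's background-adjusted brightness per probe set on a linear scale. Ratios were taken after each brain array had been brought to the kidney array's scale, which multiplied 430A signals by 1.79 and divided 430B signals by 4.24. Readings under a floor (186.4 for 430A and 28.6 for 430B, in kidney array units) were raised to it, which makes a fold with 1 tissue under the floor a lower bound ("at least"). A gene was called for the tissue in which it stood 2-fold or more above the other tissue. Since both tissues are mixtures of cells, fewer cells that express a gene and less RNA per cell cannot be told apart.

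Of the 10 genes, 8 passed the floor in 1 tissue or both, as did 71% of all 18193 genes, and 6 of these were higher in brain: Nr4a1, Egr3, Egr1, Fos, Arc and Junb. None was higher in kidney. Jun and Ier2 were under 2-fold apart, and Fosb and Atf3 lay under the floor in both tissues. Among all the genes that passed the floor, 18.2% were higher in brain and 26.4% in kidney. The median log2 ratio of brain over kidney was 1.76 over the 8 genes and -0.08 over all 12913 genes above the floor. Of the 8, 4 passed the floor in brain alone (Fos, Junb, Egr3 and Arc), and a gene of that kind can hardly come out otherwise than towards brain. Over the 4 that passed in both tissues, 2 were higher in brain (Egr1 and Nr4a1), where 13% of all 8280 such genes were.

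**Figure D1:**
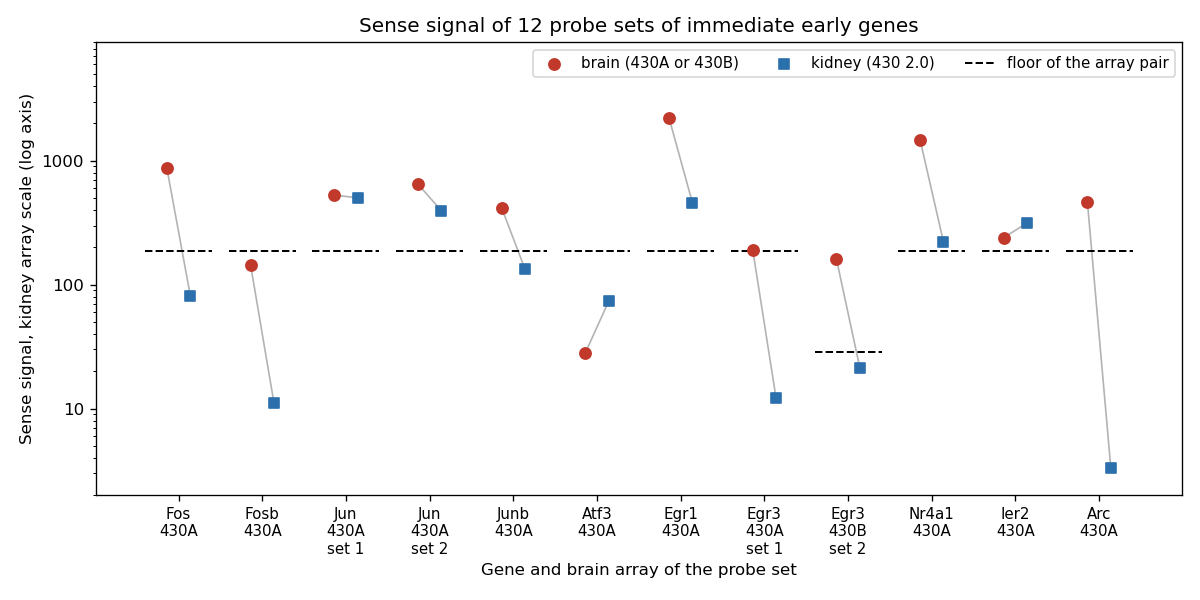
Sense signal (log axis, kidney array units) of the 12 probe sets, with brain as circles, kidney as squares and the floor of each array pair as a dashed line. Brain stands above kidney for Fos, Fosb, Junb, Jun (by less), Egr1, Egr3, Nr4a1 and Arc, with the kidney point under the floor for all of these but Jun, Egr1 and Nr4a1, while both readings of Fosb and of Atf3 lie under it.

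Promoters are shown for the called genes Fos, Junb and Nr4a1, and for Jun, which was not called, because immediate early genes are classically driven through short elements close to their starts. Each line gives the 250 bases before the start from RefSeq (GRCm38.p6), 5′ to 3′ in the direction of the gene, with matches to the searched motifs in capitals. They are chr12:85473640-85473889, plus strand; chr8:84978749-84978998, minus strand; chr15:101266596-101266845, plus strand; and chr4:95052223-95052472, minus strand. The Nr4a1 window lies before an inner start within the annotated gene.
Fos: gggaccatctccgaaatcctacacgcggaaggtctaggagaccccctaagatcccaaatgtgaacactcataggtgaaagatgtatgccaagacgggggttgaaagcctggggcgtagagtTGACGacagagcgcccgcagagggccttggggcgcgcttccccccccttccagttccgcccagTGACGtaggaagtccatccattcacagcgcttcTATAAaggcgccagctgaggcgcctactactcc
Junb: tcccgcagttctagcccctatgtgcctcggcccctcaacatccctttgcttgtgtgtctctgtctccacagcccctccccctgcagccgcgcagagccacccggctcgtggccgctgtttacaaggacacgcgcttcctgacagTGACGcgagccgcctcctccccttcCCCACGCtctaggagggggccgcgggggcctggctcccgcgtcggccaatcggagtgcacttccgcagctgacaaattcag
Nr4a1: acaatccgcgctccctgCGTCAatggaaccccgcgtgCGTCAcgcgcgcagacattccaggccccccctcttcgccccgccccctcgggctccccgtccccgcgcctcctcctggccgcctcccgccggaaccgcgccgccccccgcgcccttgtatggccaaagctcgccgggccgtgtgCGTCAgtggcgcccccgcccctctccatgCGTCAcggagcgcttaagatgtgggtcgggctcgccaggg
Jun: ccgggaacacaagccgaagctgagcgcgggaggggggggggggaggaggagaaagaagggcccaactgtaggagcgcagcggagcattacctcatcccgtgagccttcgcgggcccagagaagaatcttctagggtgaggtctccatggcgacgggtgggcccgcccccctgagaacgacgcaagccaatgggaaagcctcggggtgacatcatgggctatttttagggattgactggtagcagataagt
The motifs searched were the half-site of the CREB element (TGACG), the AP-1 site (TGANTCA), the EGR core (GCGTGGG) and the CArG box that SRF binds, on both strands, and the TATA box (TATAA) on the gene's own strand. A match on the opposite strand reads CGTCA for the CREB half-site and CCCACGC for the EGR core. None of these matches overlapped another.

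Among these windows, Fos held 2 CREB half-sites, 129 to 125 and 66 to 62 bases before the start, and a TATA box 33 to 29 bases before it. Junb held 1 half-site and 1 EGR core, and Nr4a1 held 4 half-sites, all on the opposite strand. The Jun window held no match. Motif content did not follow the calls in one way, since Atf3 and Fosb, with no call, each had a CREB half-site. Of the 6 genes of the list with a window used, 5 had a CREB half-site (Atf3 and Fosb with 1 each, beside the above), against 17.8% of all 32851 RefSeq windows of this length. No window of the 6 held a CArG box (1.47% of all windows) or an AP-1 site (6.75%). The EGR core stood in 4.3% and the TATA box in 16% of all windows. A match is a description of letters and not a measured binding site, and no match says only that these letters are not in this window.

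The AP-1 genes did not behave as one group. Fos, the founding partner in AP-1, read 486 in brain and 81.6 in kidney, a difference of at least 4.67-fold towards brain. The kidney reading was under the floor, so only the brain signal was above it. Fosb, a relative of Fos with a long-lived splice form in neurons, read 80.6 in brain and 11.1 in kidney, both under the floor, so it carries no call.

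Junb, a JUN protein that often restrains c-JUN, read 232.8 in brain and 133 in kidney, a difference of at least 2.24-fold. That call rested on the scaling, since with signals as deposited the difference was 1.75-fold. Jun, the founding JUN protein, had 2 probe sets. The one that represents it read 360.8 in brain and 395.1 in kidney. The other read 294.8 in brain and 501.3 in kidney. After scaling the log2 ratios were 0.71 and 0.08, both under 2-fold, and as deposited both readings were lower in brain. Atf3, a stress-induced partner of JUN, read 15.7 in brain and 73.6 in kidney. It was the only gene of the 10 under the floor in both tissues with the higher reading in kidney.

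Both EGR genes were higher in brain. Egr1, also called Zif268 and much used as a marker of neuronal activity, read 1237 in brain and 458.1 in kidney, both above the floor, a 4.84-fold difference. Egr3, an EGR factor induced by activity in neurons and needed for muscle spindles, was read by a probe set on each brain array. The 430B probe set, which represents the gene, read 686.9 in brain and 21.4 in kidney, a difference of at least 5.65-fold. The 430A probe set read 107 in brain and 12.1 in kidney, and with the high floor of that array this came to at least 1.03-fold. The call for Egr3 therefore rests on 430B: without that array, or with the 430A floor applied to it, Egr3 was not called.

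Nr4a1 (Nur77), the nuclear receptor of the list, read 822.4 in brain and 221.2 in kidney. Both readings were above the floor, and the 6.66-fold difference was the largest among the 4 genes with both tissues above it. Egr1 and Nr4a1 were called higher in brain under each of the 9 alternative ways of processing. Most of these could not change either gene, which has a single probe set without suffix and both readings above the floor. Values moved only in the following settings. With signals as deposited the folds were 2.70 for Egr1 and 3.72 for Nr4a1. With quantile normalization they were 6.18 for Egr1 and 7.51 for Nr4a1. With the floor at the 75th percentile they were 4.83 for Egr1 and 3.21 for Nr4a1.

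Ier2, a small nuclear protein of the early growth response, went the other way without passing 2-fold: it read 133.6 in brain and 315.2 in kidney, a log2 ratio of -0.40. With signals as deposited it passed 2-fold, 2.36-fold higher in kidney, a setting that called 24.2% of all genes towards brain and 26.6% towards kidney.

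Arc, a synaptic protein that promotes the removal of AMPA receptors from the membrane, had the most one-sided raw readings of the 10 genes, 257 in brain and 3.3 in kidney. Because 3.3 lies far under the floor of 186.4, the fold is given only as at least 2.47. As deposited, with no floor, the signals stood 77.9-fold apart, a figure that rests on a kidney reading near the bottom of its array. With the floor at the 75th percentile of the arrays, that bound was 1.003 and that of Fos 1.90, Junb was under the floor, and 3 of the 6 genes stayed called (Egr1, Egr3 and Nr4a1).

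The rank of a probe set within its own array needs no scaling between arrays. Arc lay at percentile 75.1 in brain and 11.0 in kidney, the widest gap of the 10 genes, and Egr3 on 430B at 93.0 in brain and 37.5 in kidney. Fos lay at 88.1 in brain and 61.8 in kidney, Nr4a1 at 93.9 in brain and 76.3 in kidney, Fosb at 42.4 in brain and 25.0 in kidney, and Egr1 at 96.6 in brain and 86.1 in kidney. Junb lay at 72.7 in brain and 68.7 in kidney, Jun at 82.8 in brain and 84.2 in kidney, Ier2 at 57.6 in brain and 81.4 in kidney, and Atf3 at 14.01 in brain and 60.3 in kidney. With the kidney array ranked over the matching probe sets of 430A or 430B alone, the kidney percentile was 76.0 for Egr1, 61.6 for Nr4a1, 51.6 for Junb, 73.1 for Jun and 68.9 for Ier2. It was 43.3 for Fos and 6.83 for Arc. For Egr3 on 430B it rose to 51.4, which narrowed the gap to brain. By that ranking Jun stood higher in brain, Junb stood further above its kidney rank, and Ier2 alone of the 8 genes above the floor ranked higher in kidney. The ranks of Fosb and Atf3 come from readings under the floor in both tissues and have no order.

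**Figure D2:**
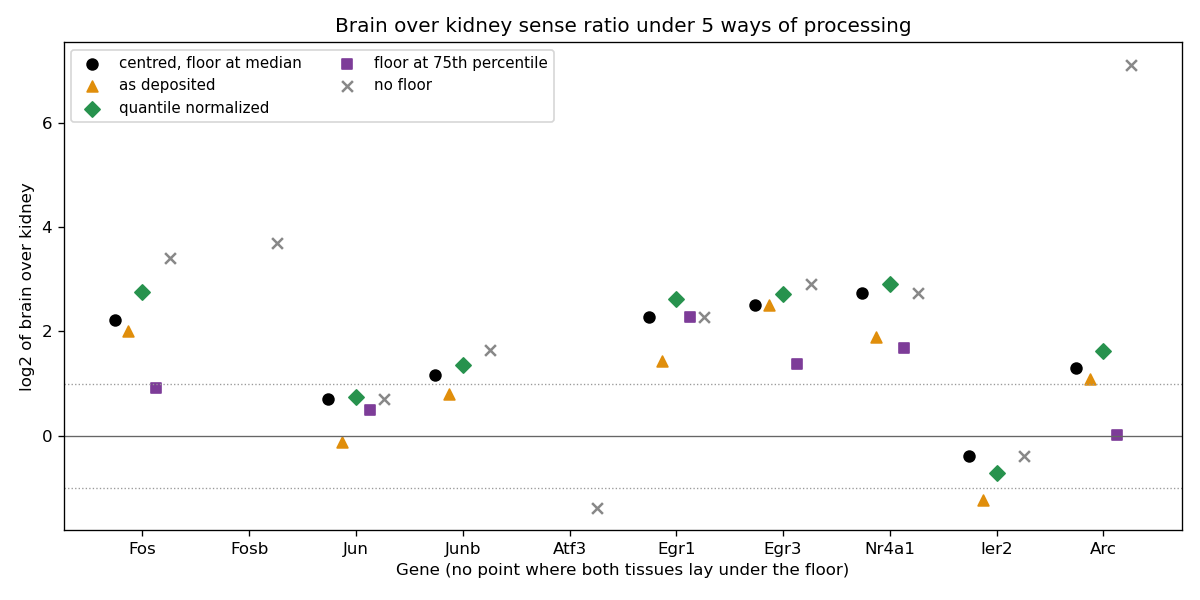
Log2 ratio of brain over kidney sense signal per gene under 5 ways of processing, with dotted lines at 2-fold in either direction. Egr1, Egr3 and Nr4a1 stay above the upper dotted line in all 5, while Fos, Junb and Arc cross it and Ier2 crosses the lower one with signals as deposited.

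The closest relatives of these genes had calls for either tissue, and many had none. Of 8 further FOS, JUN and ATF proteins that can enter AP-1, 5 passed the floor, 2 of them higher in brain and 1 in kidney (median log2 ratio 0.12). Jund, a JUN protein present at steady levels in many cells, read 2385.6 in brain and 2124.6 in kidney (2.01-fold), and Atf2, which pairs with c-JUN, 894.1 in brain and 709.4 in kidney (2.26-fold). Neither was 2-fold apart with signals as deposited. Fosl2, the one higher in kidney, had probe sets that disagree: 127.7 in brain and 526.4 in kidney on 430B (17.5-fold after scaling), but 118 in brain and 51.5 in kidney on 430A (log2 ratio 0.18). Jdp2 had a log2 ratio of 0.04 and Atf7 of at least 0.12, and Fosl1, Batf and Batf3 lay under the floor in both tissues.

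Beside Egr1 and Egr3, none of the 3 EGR relatives and NAB corepressors above the floor was 2-fold apart. Egr4 read 165.3 in brain and 6.8 in kidney (1.59-fold or more), Nab2 248.5 in brain and 250 in kidney, Nab1 335.2 in brain and 798 in kidney, and Egr2 was under the floor in both. Beside Nr4a1, none of the 4 NR4A relatives and RXR partners above the floor was 2-fold apart. Nr4a2 (Nurr1), needed for dopamine neurons, read 611.4 in brain on 430B and 100.5 in kidney (1.43-fold after scaling), and as deposited it was called higher in brain, at least 5.03-fold. With 430B put on the 430A scale it was also called higher in brain (4.34-fold). Nr4a3 read 164.8 in brain and 13.5 in kidney (1.36-fold or more), Rxra and Rxrb had log2 ratios of 0.47 and -0.62, and Rxrg was under the floor.

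A wider list of 22 immediate early genes held more calls for kidney. Among its 18 genes above the floor, kidney was higher for 8 and brain for 1 (median log2 ratio -0.82). Over all genes above the floor, kidney was higher for 26.4% and brain for 18.2%. Ier3, a survival factor, read 118.7 in brain and 1047.1 in kidney (4.92-fold). Sgk1, a kinase that raises sodium uptake in the distal nephron, read 280.4 in brain and 2253.6 in kidney (4.49-fold), and Ccn2, a secreted matrix protein, 125.5 in brain and 965.1 in kidney (4.29-fold). The other 5 were Mcl1, Ccn1, Klf10, Csrnp1 and Bhlhe40, between 2.00-fold and at least 2.56-fold, and Csrnp1, on 430B, read higher in brain before scaling (108.6 in brain and 59.6 in kidney). The clock gene Per1 was the one higher in brain (470.8 in brain and 219 in kidney, 3.85-fold). The count in kidney lay between 5 and 11 over the 9 alternatives. No test compares this list with the 10 genes.

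Of 11 activity-regulated neuronal genes that passed the floor, 5 were higher in brain, with none the other way, among them the neurite growth factor Nrn1 (3214.6 in brain and 33.4 in kidney, 22.7-fold) and the secreted peptide precursors Vgf (at least 15.6-fold) and Scg2 (at least 12.7-fold). Vgf and Scg2 passed the floor in brain alone. Without 430B the count of these neuronal genes higher in brain was 1. Of 10 proteins that work with ARC in endocytosis and receptor traffic, 9 were higher in brain, among them the GTPase Dnm1 (at least 35.7-fold), the kinase subunit Camk2a (at least 29.4-fold) and the endophilin Sh3gl2 (8.20-fold), and 1 in kidney, the endophilin Sh3gl1 (2.35-fold). All of these 9 but Sh3gl2 and the dynamin Dnm2 passed the floor in brain alone, and such a gene can hardly come out otherwise than towards brain. The shares over all genes, 18.2% in brain and 26.4% in kidney, apply to this list too. Camk2a was under the floor with 430B left out.

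The upstream inducers had calls for either tissue. Of 12 SRF, TCF, CREB and MEF2 genes that passed the floor, 3 were higher in brain (Mef2a, Mef2c and Mef2d) and 3 in kidney (Creb1, Elk3 and Crebbp). These counts lie near the shares over all genes, 18.2% in brain and 26.4% in kidney. Mef2c read 612.5 in brain and 361.9 in kidney (3.03-fold), Elk3, a TCF that can repress, 59.3 in brain and 664.9 in kidney (3.57-fold or more), and Creb1 on 430B 695.4 in brain and 590.2 in kidney (3.60-fold towards kidney after scaling). As deposited, the probe set that represents each of the 3 MEF2 genes was under 2-fold, and those of Creb1 and Crebbp had the other direction. Other MEF2 probe sets differed from these. Mef2c also read 1448.7 in brain and 173.6 in kidney, and Mef2d 926.3 in brain and 78.9 in kidney on 430B. Mef2a also had a probe set with the lower reading in brain (128 in brain and 375.8 in kidney). Creb1 was not called with 430B put on the 430A scale (log2 ratio -0.25). Of 5 ERK pathway kinases, Map2k1 was higher in brain (4.36-fold) and Rps6ka3 and Map2k2 in kidney (2.92-fold and 2.44-fold). Elk3 and Map2k2 were not called with the floor at the 75th percentile (log2 ratios -0.53 and -0.60), and neither they nor Rps6ka3 were called with the median of probe sets (-0.79, -0.77 and -0.76).

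Many immediate early mRNAs carry AU-rich elements that set their decay. Of 10 proteins that bind such elements, 5 were higher in brain, among them the neuronal stabilisers Elavl2 (at least 8.15-fold) and Elavl3 (at least 5.13-fold). Kidney was higher for 3, among them Zfp36l1, which promotes decay (129 in brain and 2395 in kidney, 10.4-fold). The other Zfp36l1 probe set read 147.7 in brain and 454.1 in kidney, 1.72-fold towards kidney and not called. With suffix-marked probe sets left out, the probe set that then represented Elavl2 gave a bound of 1.40-fold, so the gene was not called. Another Elavl2 probe set without suffix did pass 2-fold towards brain, with a lower bound of 5.39. Its signals were 560.3 (brain) and 0.6 (kidney). Of 11 ATF4 and stress response genes that passed the floor, 2 were higher in brain (Asns, 4.98-fold, and Hsph1) and 2 in kidney, the inducible and nearly identical HSP70 genes Hspa1b (at least 14.7-fold) and Hspa1a (at least 2.44-fold). The counts of this stress list lie near the shares over all genes, 18.2% in brain and 26.4% in kidney. Hspa1a lay under the floor once that was set at the 75th percentile.

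**Figure D3:**
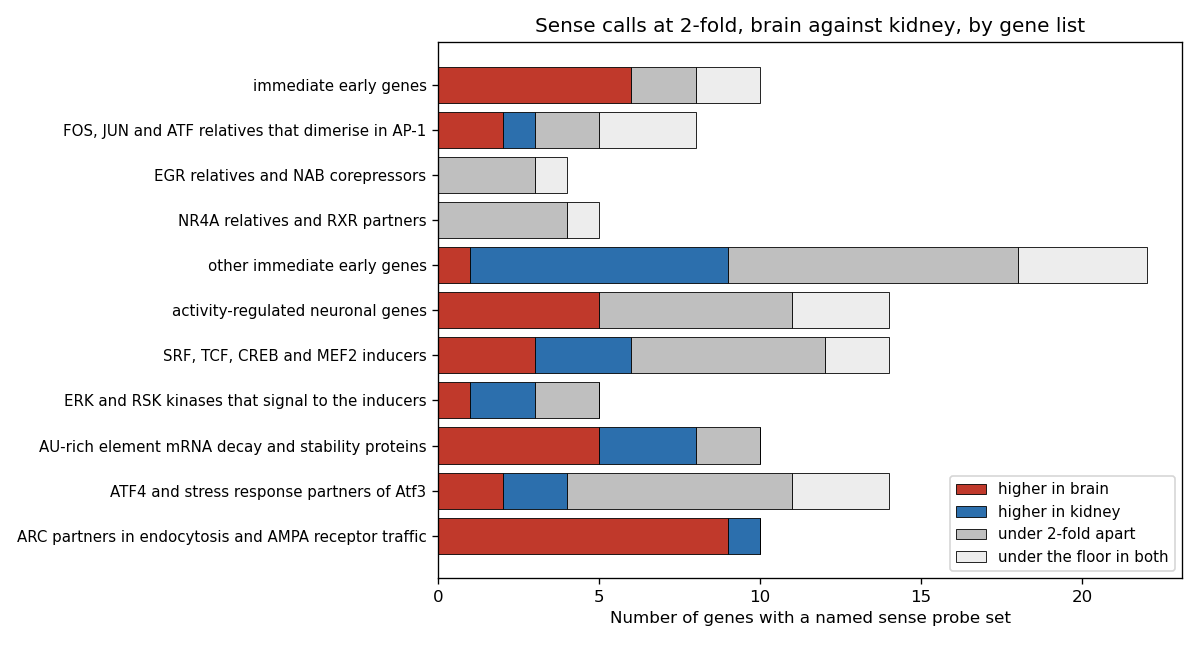
Number of genes per list that were 2-fold or more higher in brain, 2-fold or more higher in kidney, under 2-fold apart, or under the floor in both tissues. The 10 immediate early genes have 6 in brain and 0 in kidney, against 1 and 8 among the 22 other immediate early genes.

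Antisense signal of these genes stayed under the floor in both tissues. Fos, Egr1 and Atf3 had a reverse probe set, all on U74A, and none reached the floor of 63.5 in either tissue, where 27.7% of all 2611 reverse U74A probe sets did in at least 1 tissue. Most reverse U74A probe sets thus failed this floor too, and with 3 probe sets the absence of a pass is little apart from that share. The reverse Fos probe set read 43.2 in brain and 4.5 in kidney. Its brain reading lay at percentile 66.7, above the array median of 21.7. That of Egr1 read 9 in brain and 2.3 in kidney, and that of Atf3 15.4 in brain and 20.4 in kidney. The Egr1 and Atf3 probe sets carry a suffix, _f_at for probes that also match related sequences and _i_at for a set short of unique probes. None of the 10 genes had a reverse probe set on U74B. Antisense signal of these genes was therefore not detectable above the floor, which does not show that it is absent.

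Sense and reverse readings were set side by side as percentiles of their own arrays, which do not remove differences in binding between probes. For Fos, the sense probe set lay at percentile 88.1 in brain and 61.8 in kidney, and the reverse one at 66.7 in brain and 18.04 in kidney. Egr1 lay at 96.6 in brain and 86.1 in kidney for sense, and at 28.9 in brain and 7.24 in kidney for reverse. Atf3 lay at 14.01 in brain and 60.3 in kidney for sense, and at 42.7 in brain and 53.3 in kidney for reverse. All 6 reverse readings, and both sense readings of Atf3, lay under their floors, so no order between tissues is read from these ranks.

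The related genes had 18 reverse probe sets of 16 genes, of which 5 probe sets were above the floor. Called at 2-fold were Mef2d, which encodes a MEF2 factor (340.8 in brain and 79.9 in kidney, 4.27-fold higher in brain), and 1 of 2 probe sets of Dnm2, a dynamin (338.9 in brain and 159.2 in kidney, 2.13-fold). Both carry the suffix _f_at, and Dnm2 was under 2-fold after median-centring and after quantile normalization. On U74A, brain was higher for 28.8% of the reverse probe sets that passed the floor, and kidney for 3.73%. On U74B, these shares were 14.3% and 6.41%. The reverse probe set of Fosl2 read 22.3 in brain and 153.4 in kidney. That is at least 1.56-fold towards kidney and so not called. Trib3 and the other Dnm2 probe set had log2 ratios of at least 0.22 and at least 0.12. The reverse probe set of Nr4a2 read 13.1 in brain and 21.9 in kidney, under the U74B floor of 98.5.

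**Figure D4:**
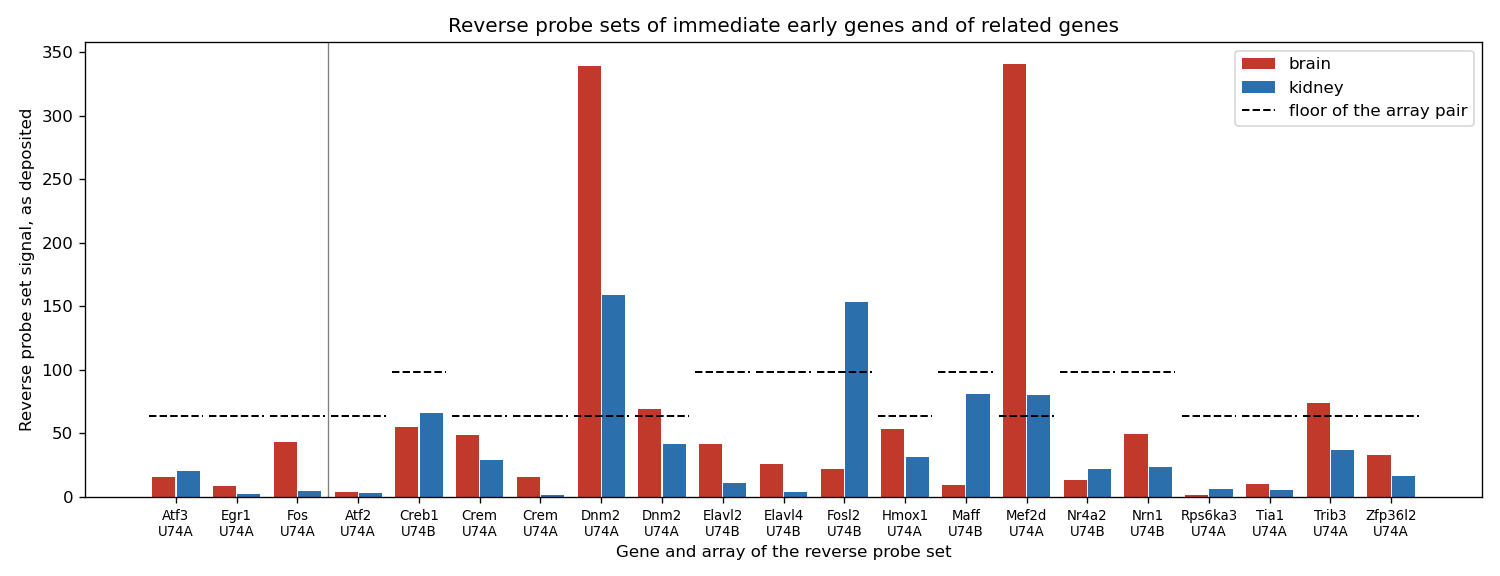
Signal as deposited of the 3 reverse probe sets of immediate early genes, left of the vertical line, and the 18 of related genes, right of it, with brain bars left of kidney bars and the floor of each array pair dashed. All 3 reverse probe sets of immediate early genes lie under the floor in both tissues, while Mef2d and 1 Dnm2 probe set stand above it in both.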

How the data were processed

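Total RNA of mouse brain and kidney had been hybridised to 7 arrays, 1 per tissue and design. The authors deposited MAS5 signals, which give the intensity of each probe set before any log, per the submitters' processing notes. On the U74 arrays the authors kept only probe sets that the Affymetrix mask marks as reverse, per the labels. MAS5's version and the U74 scaling target are not given in the sources used here. The 2% trimmed mean lay between 198.9 and 199.3 on the sense arrays, and between 29.8 and 73.3 over the reverse subsets.

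GEO's platform annotation gave the gene names, and RefSeq (GRCm38.p6) the current symbols through the gene identifier. From each sense pair the median log2 ratio over probe sets brighter than both arrays' medians was removed (-0.84 for 430A, 2.08 for 430B), and the floor was the higher median. Antisense signals were used as deposited, with the higher 75th percentile as the floor (63.5 for U74A, 98.5 for U74B). A gene was represented by its probe set of highest mean percentile. The 100 probe sets on both brain arrays, none from the 10 genes, were used once. Over the 98 above both medians, repeat readings differed by an SD of 0.25 (log2), which covers technical error only. In that repeat 430B read a median of 1.33 (log2) above 430A. The shifts removed put the 2 brain arrays further apart than this, which moves 430B ratios towards kidney relative to the repeat.

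The members, the lists and the rule for named genes were chosen with earlier results of these data known. The rule named all 10 genes, the AP-1, EGR and NR4A relatives, the 3 largest ratios of each other list (lower bounds taken at their value), and related genes with a reverse probe set above the floor. Genes that complete a count of 5 or fewer (Per1, the other 5 wider immediate early genes in kidney, Sh3gl1, Mef2a, Mef2d, Crebbp and Hsph1), the markers Gh, Fabp4, Prox1 and Aldh1l1 and the reverse probe set of Nr4a2 were named after their values were seen. Scaling, floor, probe set choice and 430B were varied, the last chosen after seeing the data. Calling was tested on simulated data. The tools were Python 3.11.15, numpy 2.4.6, pandas 2.3.3 and matplotlib 3.10.9. Precision is limited by how few arrays there are.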

Additional observations from a re-analysis of the deposited data

How the results depend on the processing

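No paired analysis was possible because each tissue had 1 array per design. Under the 9 sense alternatives, the count of immediate early genes higher in brain lay between 3 and 7, against 6. It was 3 with the floor at the 75th percentile, and 7 with no floor, where all 10 genes were counted. The count higher in kidney became 1 with signals as deposited (Ier2) and 1 with no floor (Atf3), against 0. The median log2 ratio of brain over kidney stayed above 0, at 1.26 with signals as deposited, 2.12 with quantile normalization, 1.15 with the floor at the 75th percentile, 2.51 with no floor, 1.31 with the 430A floor used for 430B, 1.29 with each gene at the median over its probe sets and 1.23 with 430B left out, against 1.76. Of the related genes, 44 were higher in brain with no floor, against 28, and 13 in kidney with the floor at the 75th percentile, against 20. The median percentile difference between brain and kidney over the 12 probe sets was 13.98, and 23.9 with kidney ranked over the matching probe sets alone. With the reverse floor at the median 1 reverse probe set of the 10 genes passed it, and with no floor all 3 were counted, 2 of them higher in brain.

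Directions that turned were as follows, as log2 ratios of brain over kidney. With signals as deposited, the AP-1 relatives had a median of -0.32, the EGR relatives -0.0087, the ATF4 and stress list -0.58, all genes 0.017, Creb1 0.24, Crebbp 1.04 and Khsrp 0.83. With 430B on the 430A scale, Crebbp was 0.56, Khsrp 0.34 and all genes 0.29. Crebbp was 0.013 with quantile normalization. The EGR relatives were at -0.41 with the floor at the 75th percentile, and all genes at 0.19 with no floor. With the 430A floor used for 430B, the NR4A relatives were at -0.073, the ERK kinases at -0.17 and the AU-rich element list at -0.24. That list was at -0.081 with the median of probe sets. The NR4A relatives were at -0.34 without suffix-marked probe sets. With 430B left out, the ERK kinases were at -0.44, the AU-rich element list at -0.24, all genes at 0.060, Crebbp at 1.08, Elavl1 at -1.52 and Fosl2 at 0.18. The cause of these changes was not tested. Fos, Egr1, Nr4a1 and Arc kept their direction in all 9 alternatives, and Junb and Egr3 in the 8 in which they passed the floor. Much of this was fixed beforehand. Fos, Junb, Egr1, Nr4a1 and Arc have a single probe set each, on 430A, so settings for 430B or for probe set choice leave them unchanged. For Fos, Junb, Egr3 and Arc the kidney reading was under the main floor, and at that floor the ratio could not turn towards kidney. Jun, under 2-fold, was at -0.13 with signals as deposited.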
